A study of Homo sapiens with 72 samples.

Results

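The 40 genes described here encode the factors that build the human ribosome. They were taken from a list of gene symbols and not by a rule on measured values. The list was, however, chosen with earlier results of these data known. All 40 were found among the 60371 Ensembl genes of the files, each under 1 identifier. The list holds 3 core proteins of the box C/D snoRNPs, 4 of the box H/ACA snoRNPs, 3 subunits of RNA polymerase I, 5 nucleolar chaperones and helicases, 11 components of the small subunit processome, 4 late assembly factors of the 40S subunit and 10 assembly factors of the 60S subunit.

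Ribosomes are made in the nucleolus, where RNA polymerase I transcribes the precursor of the large ribosomal RNAs. Small nucleolar RNPs then guide chemical modification of this RNA: box C/D particles methylate the ribose and box H/ACA particles convert uridine to pseudouridine. The small subunit processome folds and cleaves the precursor, and separate sets of GTPases, helicases and scaffold proteins bring the 40S and the 60S subunits to the form that leaves the nucleus. Proliferating tumor cells express these genes at high levels, and many of them are known targets of MYC, a transcription factor that binds the E-box sequence.

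The libraries came from U2OS, a human osteosarcoma cell line, grown in 24-well plates and collected after 12 h of treatment. There were 18 wells with DMSO, the solvent control, and 3 wells of each of 6 compounds at each of 3 doses (100, 1000 and 10000 nM), 72 libraries in all, made from poly(A)-selected RNA. Triptolide blocks transcription through the TFIIH subunit XPB, and homoharringtonine blocks translation elongation on the ribosome. Nilotinib inhibits the ABL kinase, MK-2206 inhibits AKT, Pyrazolanthrone inhibits JNK, and Miglitol inhibits intestinal alpha-glucosidases. The labels give a well number and do not say whether wells were separate cultures, so p-values measure the spread between these wells, which may be technical. In bulk libraries such as these, fewer cells of a kind and less RNA per cell cannot be told apart.

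Summed expected counts per library ran from 70767 to 68296309. Only 3 libraries held fewer than 10000000 counts, namely well 2 of triptolide at 100 nM (70767), well 10 of DMSO (460014) and well 1 of triptolide at 1000 nM (9628355). Of the 9 osteoblast lineage markers, COL1A1 (median 452 TPM in DMSO) and SPARC (2137 TPM) were high, while SP7 and TWIST1 had a median of 0 and COL1A2 of 0.07 TPM. The 9 markers summed to 1777 to 3514 TPM in DMSO, 3237 to 5761 TPM in triptolide wells and 273 to 604 TPM in homoharringtonine wells. The 5 epithelial markers summed to at most 8.83 TPM and the 5 blood cell markers to at most 1.68 TPM in these wells. Messages of the 13 mitochondrial protein genes made up 0.138% to 0.367% of the counts in DMSO and 0.519% to 1.15% with triptolide. The part of these shifts in the results was not tested.

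In DMSO the 40 genes spanned 11.7 TPM for UTP20 to 3487 TPM for NPM1, with a median of 64.5 TPM. TPM is scaled for transcript length, so levels can be set side by side between genes. Among 14972 genes with a mean of at least 1 TPM in DMSO, 38 of the 40 stood above the median and 10 above the 90th percentile. The multifunctional chaperones and the snoRNP proteins led the order: NPM1 (3487 ± 612 TPM, SD, n = 18), NCL (605 ± 107 TPM), FBL (532 ± 49.2 TPM), NOP56 (311 ± 44.5 TPM) and NHP2 (299 ± 41.6 TPM). At the other end stood structural proteins of the small subunit processome, HEATR1 (21.3 ± 5.93 TPM), UTP15 (13.2 ± 3.55 TPM) and UTP20 (11.7 ± 3.47 TPM). Of the 39 pairs of neighbours in this order, 5 were apart by more than the larger of their SDs. Most gaps were thus within the spread between wells. This rule does not use that both genes of a pair were measured in the same wells, and the order within wells was not tested.

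**Figure D1:**
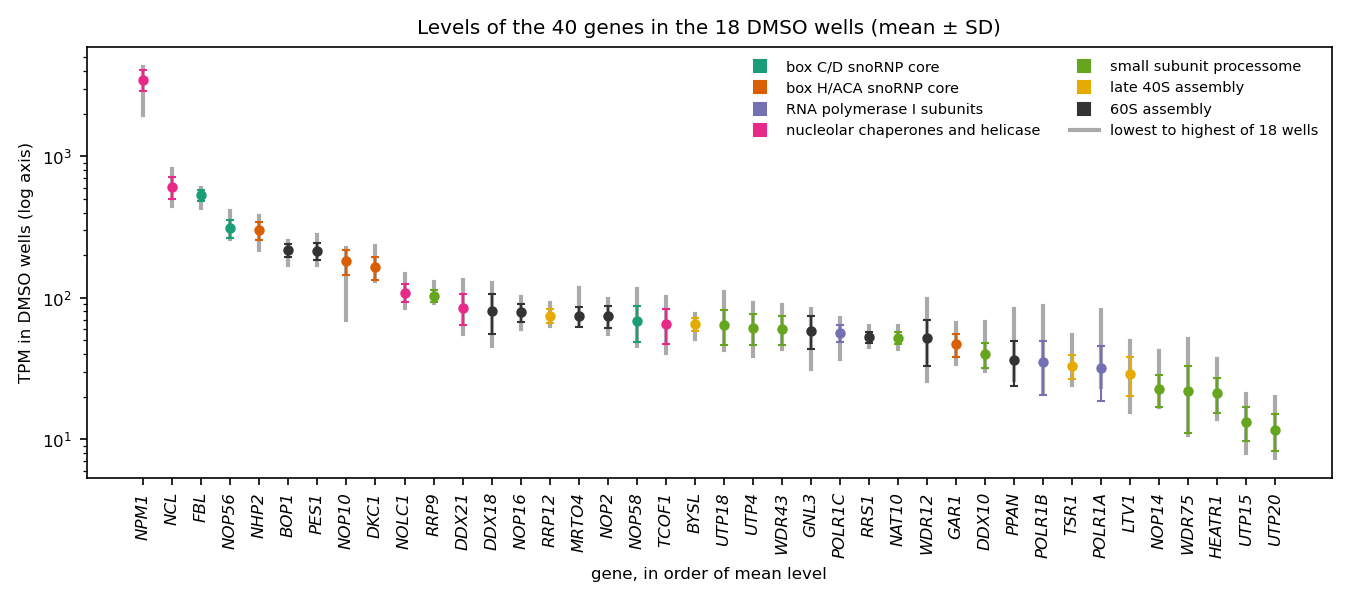
Mean TPM (log axis) of each of the 40 genes in the 18 DMSO wells, with the SD as error bar, the range of the wells as a grey line and the role as colour. NPM1 at 3487 TPM stands clear of NCL at 605 TPM, and UTP20 is lowest at 11.7 TPM.

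Triptolide lowered most of these genes at each dose. The count test (edgeR's quasi-likelihood test on the rounded expected counts, adjusted over all genes tested) called 22 of 40 lower at 100 nM, 27 at 1000 nM and 27 at 10000 nM, where 32.3%, 38.6% and 39.7% of all genes were lower. With the further condition of a log2 fold change below -1, 13, 19 and 20 members were lower, against 20.9%, 30.4% and 30.2% of all genes. The median log2 fold change over the 40 was -0.55, -0.90 and -1.01, and over all genes -0.16, -0.21 and -0.17. In percent of the members, the stricter count was 32.5%, 47.5% and 50%.

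A small set stood apart. With triptolide 5, 3 and 5 members were higher at the 3 doses, against 24.5%, 28.8% and 32.2% of all genes, and BOP1, FBL and NHP2 were higher at each dose. None of them passed a log2 fold change of 1 in edgeR, against 11.4%, 13.9% and 16.2% of all genes, while DESeq2 put 2 members past it at 1000 nM and 1 at 10000 nM. These values hold on the scale of edgeR's TMM normalization, which sets the bulk of genes near 0. When the libraries were instead scaled to the mitochondrial messages, the median of all genes moved to -1.81, -2.68 and -2.92 at the 3 doses, that of the members to -2.18, -3.36 and -3.77, and 39, 40 and 40 members were lower, BOP1, FBL and NHP2 included. With library totals alone the median of all genes was -0.50, -0.67 and -0.70, and 2, 2 and 1 members were higher. In TPM the 10000 nM wells of the 5 members higher there (BOP1, FBL, NHP2, NOP10 and TCOF1) lay within the DMSO range.

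Homoharringtonine at its lowest dose did the opposite. At 100 nM, 32 of 40 members rose and none fell, against 31.1% higher and 32.3% lower among all genes. By DESeq2 the counts were the same, 32 and 0, and no member was lower at an unadjusted p under 0.05. Of these, 20 members rose by a log2 fold change over 1, which is 50% of the members against 15.6% of all genes, and none fell by as much, against 19.3%. The median over the 40 was 0.999 on the log2 scale and over all genes -0.03. With library totals in place of TMM, 29 rose, 13 of them past 1, and 1 fell.

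The rise receded at higher doses. At 1000 nM 20 members were higher and 8 lower, against 35% and 33.4% of all genes, and at 10000 nM 17 were higher and 14 lower, against 36.7% and 37.2%. The counts past a log2 fold change of 1 were 7 higher and 3 lower at 1000 nM (21.5% and 20.9% of all genes) and 7 higher and 5 lower at 10000 nM (23.6% and 23.4%), so at these doses the shares of members were under those of all genes. On the mitochondrial scale 12 were higher and 4 lower at 1000 nM and 10 higher and 14 lower at 10000 nM, and with library totals 18 were higher and 14 lower at 1000 nM. The median over the 40 was 0.38 at 1000 nM and 0.16 at 10000 nM, the latter turning to -0.10 on the mitochondrial scale, where the median of all genes was -0.32. At 10000 nM the slope of log2 expression on GC content, per 10 percentage points, was -0.41 to -0.27 in the homoharringtonine libraries and -0.26 to 0.42 in DMSO. With this slope as a covariate the counts at 10000 nM became 11 higher and 21 lower, and NOP58, UTP20, HEATR1 and DDX18 turned from higher to a negative estimate.

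**Figure D2:**
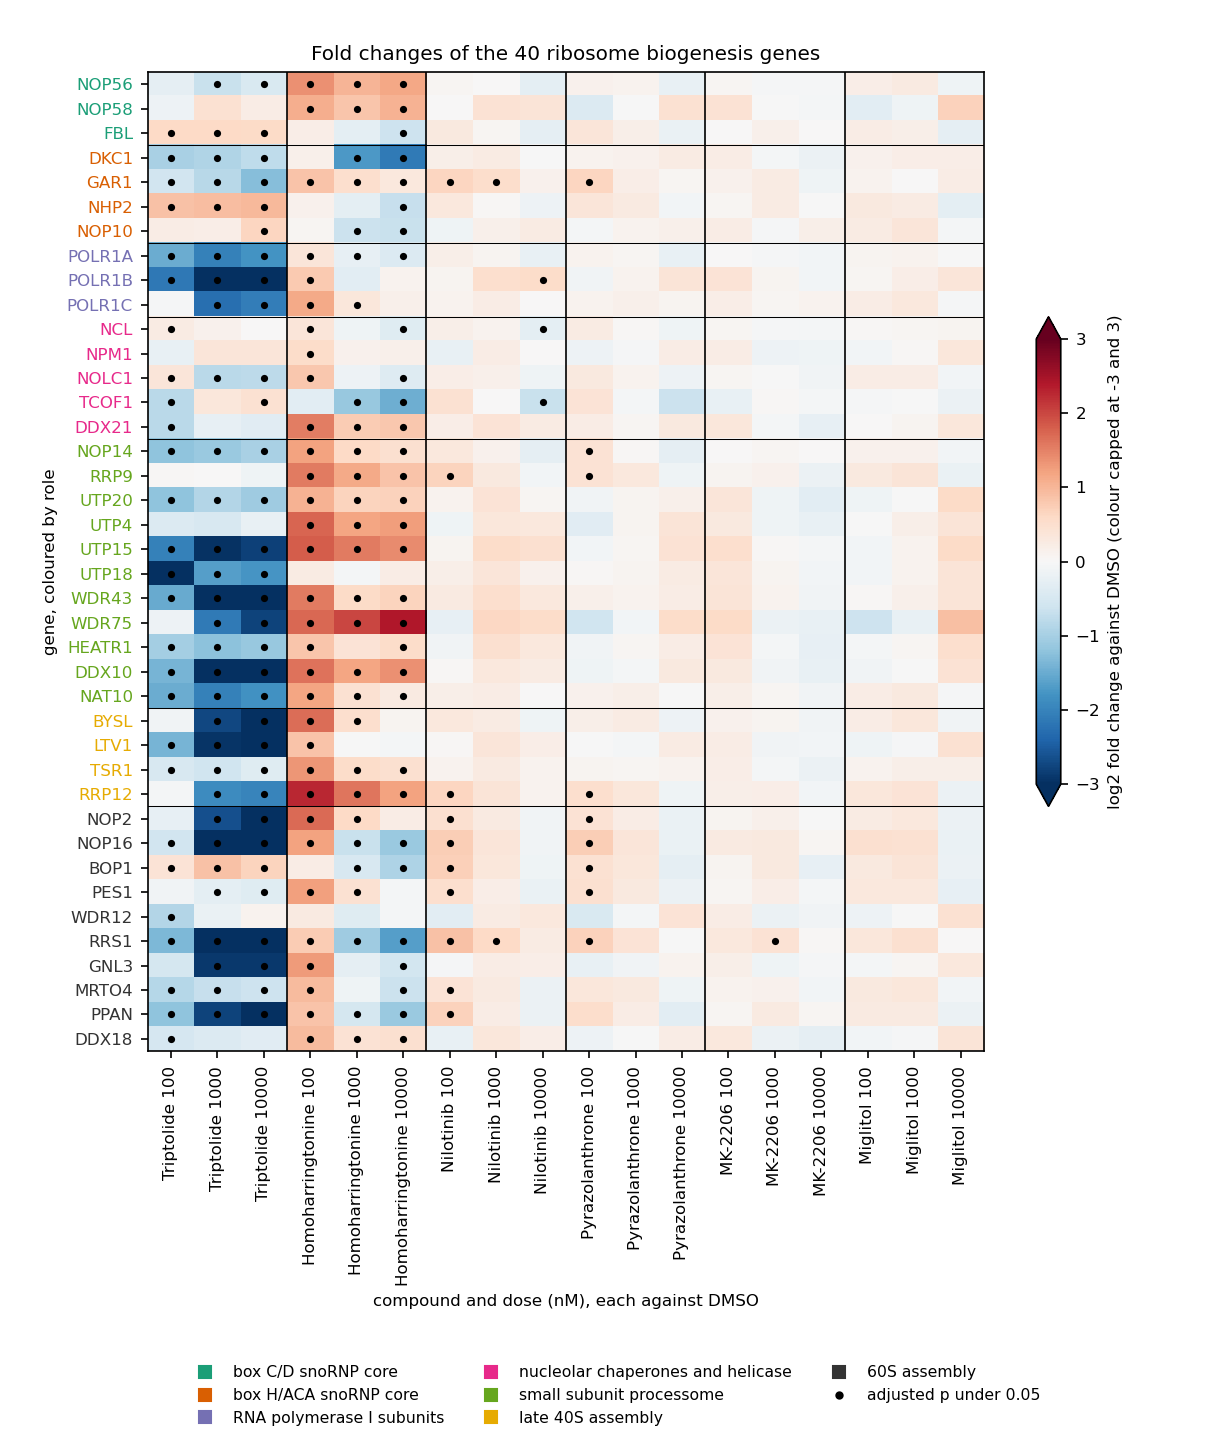
Log2 fold change against DMSO (colour, capped at -3 and 3) of the 40 genes, grouped by role, for 6 compounds at 3 doses in nM; black dots mark an adjusted p under 0.05 in edgeR. Triptolide columns are mostly blue and homoharringtonine at 100 nM has red cells with a dot for 32 genes, while the 4 other compounds stay pale. On the mitochondrial scale the red triptolide cells of BOP1, FBL and NHP2 turn negative.

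The box C/D snoRNP genes split. FBL (fibrillarin, the methyltransferase; ENSG00000105202, GRCh38 chromosome 19, 39834458 to 39846379, minus strand) had 191, 246 and 307 CPM (counts scaled to a common library size by TMM) as the lowest, median and highest DMSO well. With triptolide FBL had 386, 289 and 399 CPM at 100 nM, 378, 421 and 334 at 1000 nM, and 348, 360 and 433 at 10000 nM. All but the shallow well lay above every DMSO well, and the log2 fold change at 10000 nM was 0.56 (SE 0.12, edgeR adjusted p = 0.000132), or -2.25 on the mitochondrial scale. With homoharringtonine FBL had 262, 267 and 318 CPM at 100 nM, 253, 190 and 171 at 1000 nM, and 167, 171 and 159 at 10000 nM. The 3 wells at the top dose lay under every DMSO well, a log2 fold change of -0.62 (SE 0.12, edgeR adjusted p = 8.49e-05). The scaffold partners went the other way: NOP56 rose with homoharringtonine at each dose (1.37, 1.03 and 1.15) and fell with triptolide at 1000 nM (-0.67) and 10000 nM (-0.45). NOP58 rose with homoharringtonine (1.09, 0.84 and 1.03) and passed at no triptolide dose (-0.16, 0.45 and 0.23).

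Of the box H/ACA genes, DKC1 fell most with homoharringtonine. DKC1 (dyskerin, the pseudouridine synthase; ENSG00000130826, chromosome X, 154762742 to 154777689, plus strand) had 116, 220 and 257 CPM as the lowest, median and highest DMSO well. It had 235, 233 and 221 CPM with homoharringtonine at 100 nM, 55.4, 64.6 and 69.6 at 1000 nM, and 48.2, 46.6 and 51.6 at 10000 nM. The wells at 100 nM lay among the DMSO wells and the other 6 under all of them, with log2 fold changes of -1.72 (SE 0.15, edgeR adjusted p = 5.63e-10) and -2.12 (SE 0.16, edgeR adjusted p = 2.08e-11) at the upper doses. Triptolide gave DKC1 108, 108 and 103 CPM at 100 nM, 99.0, 96.7 and 138 at 1000 nM, and 131, 130 and 115 at 10000 nM, log2 fold changes of -0.96, -0.91 and -0.77, each past the test.

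NHP2 and NOP10, small structural proteins of the same particle, moved against DKC1 under triptolide on the TMM scale. NHP2 had 80.6, 133 and 176 CPM as the lowest, median and highest DMSO well, and 241, 229 and 244 CPM with triptolide at 100 nM, 246, 272 and 237 at 1000 nM, and 251, 259 and 298 at 10000 nM. All 9 wells lay above every DMSO well, and the log2 fold change of 0.98 at 10000 nM (SE 0.13, edgeR adjusted p = 3.94e-07) was the highest of the 40 genes there; on the mitochondrial scale it was -1.84. With homoharringtonine NHP2 had 133, 140 and 160 CPM at 100 nM, 139, 102 and 84.3 at 1000 nM, and 86.7, 89.0 and 74.9 at 10000 nM, of which the top dose passed the test (-0.69). NOP10 had 15.8, 48.5 and 58.7 CPM in DMSO and 74.3, 77.1 and 75.4 CPM with triptolide at 10000 nM, higher by 0.64 on the log2 scale (SE 0.15, edgeR adjusted p = 0.000513), though -2.14 on the mitochondrial scale. Its wells at the lower triptolide doses, 68.8, 24.1 and 44.4 CPM at 100 nM and 50.3, 47.1 and 65.7 at 1000 nM, overlapped DMSO. With homoharringtonine NOP10 had 49.5, 47.8 and 48.8 CPM at 100 nM, 29.4, 32.0 and 29.2 at 1000 nM, and 31.2, 31.0 and 29.1 at 10000 nM, lower at the upper doses (-0.64 and -0.66). GAR1, the fourth member, fell with triptolide at each dose (-0.58, -0.83 and -1.28) and rose with homoharringtonine (0.85, 0.50 and 0.32).

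The 3 RNA polymerase I subunits all fell under triptolide at 1000 and 10000 nM past a log2 fold change of -1, against 30.4% and 30.2% of all genes. POLR1A, the largest subunit (ENSG00000068654, chromosome 2, 86020216 to 86106155, minus strand), had 181, 227 and 269 CPM as the lowest, median and highest DMSO well. With triptolide it had 94.2, 48.2 and 73.8 CPM at 100 nM, 55.2, 52.9 and 60.6 at 1000 nM, and 64.7, 62.4 and 77.5 at 10000 nM. All 9 wells lay under every DMSO well, the 48.2 CPM being a few counts in the shallow library. The log2 fold changes were -1.48, -2.04 and -1.80 (SE 0.12 and edgeR adjusted p = 7.48e-13 at 10000 nM).

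With homoharringtonine POLR1A had 251, 293 and 339 CPM at 100 nM, 208, 183 and 191 at 1000 nM, and 167, 169 and 194 at 10000 nM. It was higher at 100 nM (0.37) and lower at the upper doses (-0.25 and -0.41). POLR1B, the second largest subunit, had 48.5, 73.1 and 97.1 CPM in DMSO and 15.4, 24.1 and 17.2 CPM with triptolide at 100 nM, 4.25, 6.05 and 7.28 at 1000 nM, and 7.43, 7.01 and 5.46 at 10000 nM. These 9 wells were again under every DMSO well, but the 24.1 CPM was in the shallow library, in which 3 counts would be 36.1 CPM. The log2 fold change at 10000 nM was -3.50 (SE 0.25, edgeR adjusted p = 5.11e-12). Homoharringtonine gave POLR1B 130, 134 and 109 CPM at 100 nM, all above every DMSO well (0.79), and 42.9, 62.4 and 69.8 at 1000 nM and 78.5, 76.1 and 84.0 at 10000 nM, which did not pass. POLR1C, shared with RNA polymerase III, was at -0.03 with triptolide at 100 nM, which did not pass, then fell (-2.26 and -2.07), and rose with homoharringtonine at 100 nM (1.14) and 1000 nM (0.35).

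The 2 most abundant members, NPM1 and NCL, stayed within 0.55 of DMSO on the log2 scale with either compound under TMM normalization. NPM1 (nucleophosmin, a histone and ribosome chaperone; ENSG00000181163, chromosome 5, 171387116 to 171411810, plus strand) had 711, 1062 and 1484 CPM as the lowest, median and highest DMSO well. It had 959, 627 and 958 CPM with triptolide at 100 nM, 1021, 1104 and 1863 at 1000 nM, and 1407, 1418 and 1237 at 10000 nM, and passed at no dose (-0.21, 0.36 and 0.36). With homoharringtonine it had 1736, 1471 and 1256 CPM at 100 nM, 737, 1167 and 1450 at 1000 nM, and 1117, 1099 and 1280 at 10000 nM. The lowest dose passed the test (0.55, SE 0.17, edgeR adjusted p = 0.00757), although 2 of its wells lay within the DMSO range. NPM1 has processed pseudogenes, between which the counting could have split its reads.

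NCL (nucleolin, an RNA-binding chaperone; ENSG00000115053, chromosome 2, 231453531 to 231483641, minus strand) had 769, 924 and 1023 CPM in DMSO. With triptolide it had 1118, 904 and 1134 CPM at 100 nM, 914, 1012 and 1069 at 1000 nM, and 888, 878 and 1062 at 10000 nM. The estimate passed at 100 nM (0.24) and was 0.00 at 10000 nM (SE 0.09), while on the mitochondrial scale NCL at 100 nM was at -1.27. With homoharringtonine NCL had 1162, 1085 and 1252 CPM at 100 nM, all above every DMSO well, 790, 805 and 928 at 1000 nM, and 675, 688 and 812 at 10000 nM. It was higher at 100 nM (0.36) and lower at 10000 nM (-0.37).

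TCOF1 (treacle, which recruits RNA polymerase I factors) was the member that homoharringtonine left lowest at 100 nM (-0.33, not past the test). TCOF1 had 126, 192 and 258 CPM in DMSO and 118, 138 and 197 CPM with homoharringtonine at 100 nM, 106, 75.5 and 78.8 at 1000 nM, and 64.1, 67.2 and 80.1 at 10000 nM. The 6 wells of the upper doses lay under every DMSO well, with log2 fold changes of -1.14 and -1.47 (SE 0.22 and edgeR adjusted p = 2.73e-06 at 10000 nM). With triptolide TCOF1 had 101, 84.3 and 122 CPM at 100 nM, 285, 244 and 200 at 1000 nM, and 276, 230 and 311 at 10000 nM. It was lower at 100 nM (-0.80) and higher at 10000 nM (0.47), a rise that turned to -0.08 with library totals and -2.32 on the mitochondrial scale. Of the other nucleolar proteins, DDX21, an RNA helicase, rose with homoharringtonine at each dose (1.54, 0.77 and 0.81). NOLC1, a scaffold that binds snoRNPs, was higher at 100 nM (0.80) and lower at 10000 nM (-0.39).

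**Figure D3:**
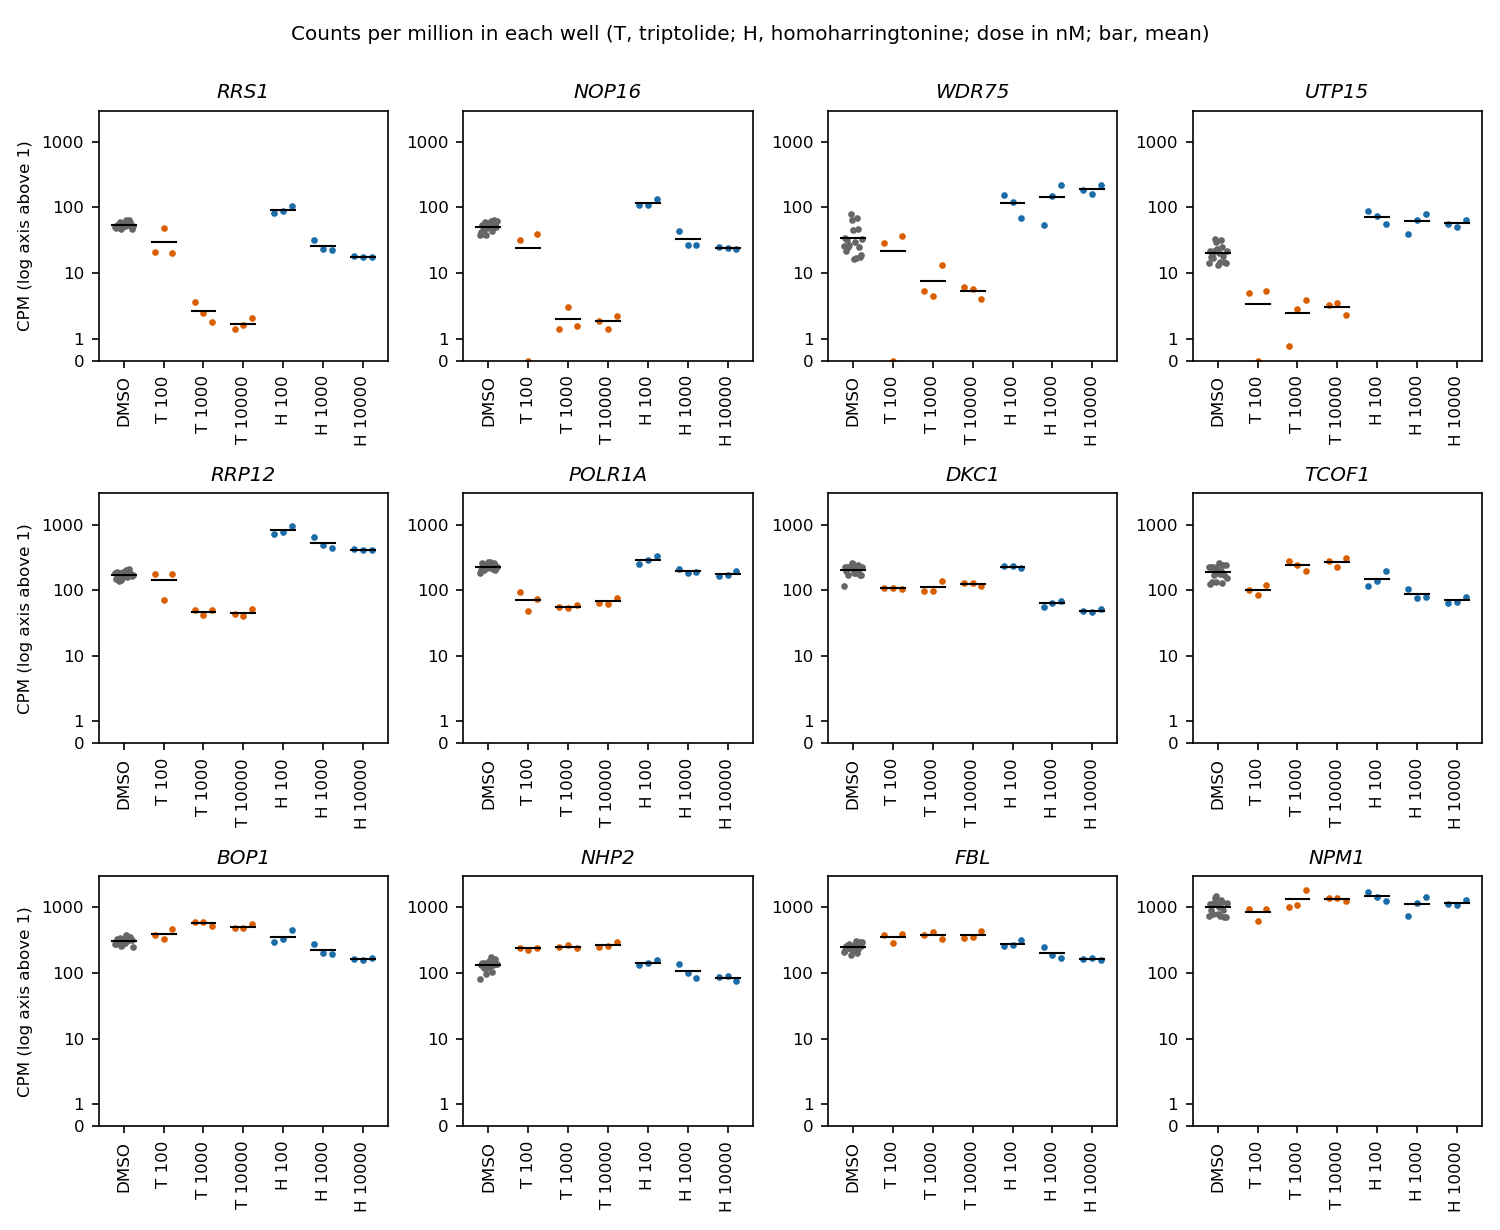
CPM on TMM sizes (log axis above 1) of 12 of the 40 genes in each of the 18 DMSO wells (grey), 9 triptolide wells (T, orange) and 9 homoharringtonine wells (H, blue) by dose in nM; black bars are means. RRS1 and NOP16 fall to 1.38 to 3.604 CPM with triptolide at 1000 and 10000 nM, BOP1, NHP2 and FBL sit above DMSO on this scale (under it on the mitochondrial scale), and NPM1 overlaps DMSO at most doses.

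The small subunit processome went opposite ways under the 2 compounds. Of its 11 members, 8, 9 and 9 fell at the 3 triptolide doses and none rose, against 32.3%, 38.6% and 39.7% of all genes lower. At the 3 homoharringtonine doses 10, 9 and 10 rose and none fell, against 31.1%, 35% and 36.7% of all genes higher. DESeq2 gave the same counts, and no processome gene had an unadjusted p under 0.05 in the opposite direction. With the GC slope as a covariate 6 rose and 2 fell with homoharringtonine at 10000 nM. UTP15, a WD-repeat protein of the UTP-A subcomplex (ENSG00000164338, chromosome 5, 73565443 to 73583380, plus strand), had 13.2, 19.6 and 33.4 CPM as the lowest, median and highest DMSO well. With triptolide it had 4.90, 0 and 5.40 CPM at 100 nM, where the 0 was in the shallow library, in which 3 counts would be 36.1 CPM. It had 0.644, 2.79 and 3.91 CPM at 1000 nM and 3.32, 3.56 and 2.34 at 10000 nM, all under every DMSO well (-2.80, SE 0.28, edgeR adjusted p = 3.28e-09 at 10000 nM). With homoharringtonine UTP15 had 88.3, 74.4 and 55.4 CPM at 100 nM, 39.8, 63.6 and 80.2 at 1000 nM, and 55.2, 51.1 and 65.3 at 10000 nM. All 9 wells lay above every DMSO well, with log2 fold changes of 1.81, 1.55 and 1.43.

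WDR75, another WD-repeat scaffold (ENSG00000115368, chromosome 2, 189441446 to 189475552, plus strand), spread widely in DMSO, with 16.6, 28.2 and 78.3 CPM as the lowest, median and highest well. It was the highest of the 40 genes with homoharringtonine at 1000 nM (2.01) and 10000 nM (2.40, SE 0.32, edgeR adjusted p = 3.04e-07). Its wells had 155, 122 and 68.5 CPM at 100 nM, 53.6, 150 and 223 at 1000 nM, and 186, 160 and 221 at 10000 nM, so only the top dose was clear of DMSO in all 3 wells. The GC slopes of the 1000 nM libraries were 0.25, -0.17 and -0.39, in the same order. In DMSO the lowest WDR75 well had a slope of 0.40 and the highest one of -0.26. With triptolide WDR75 had 28.7, 0 and 37.2 CPM at 100 nM, the 0 again in the shallow library, 5.28, 4.54 and 13.2 at 1000 nM, and 6.05, 5.77 and 4.08 at 10000 nM. The 6 wells of the upper doses lay under every DMSO well (-2.13 and -2.77).

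UTP18 was the lowest member with triptolide at 100 nM (-3.25, SE 0.25, edgeR adjusted p = 1.12e-10) and less far down at the upper doses (-1.66 and -1.76). It had 52.1, 68.0 and 97.9 CPM in DMSO and, with triptolide, 7.31, 12.1 and 7.60 CPM at 100 nM, 15.7, 20.5 and 31.9 at 1000 nM, and 21.98, 24.6 and 19 at 10000 nM. All 9 lay under every DMSO well, but the 12.1 CPM was in the shallow library, in which 3 counts would be 36.1 CPM. With homoharringtonine UTP18 overlapped DMSO, at 97.4, 85.6 and 71.5 CPM at 100 nM, 51.5, 69.7 and 86.8 at 1000 nM, and 84.5, 78.3 and 94.1 at 10000 nM. UTP18 and WDR12 were the 2 members that passed at no homoharringtonine dose. Of the remaining processome genes, WDR43 (-3.91) and the helicase DDX10 (-3.34) fell furthest with triptolide at 10000 nM. UTP4 and RRP9, the U3 snoRNP protein, passed at no triptolide dose, with estimates of -0.48 to 0.04, but rose at each homoharringtonine dose (UTP4 1.76, 1.18 and 1.24, RRP9 1.56, 1.13 and 0.85). NOP14, UTP20, HEATR1 and NAT10, the RNA acetyltransferase, were lower at all 3 triptolide doses and higher with homoharringtonine at 100 nM, by 0.82 to 1.20.

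Among the late 40S factors, RRP12 had the highest fold change of any member with homoharringtonine at 100 nM. RRP12, a HEAT-repeat export factor (ENSG00000052749, chromosome 10, 97356358 to 97426076, minus strand), had 141, 176 and 215 CPM as the lowest, median and highest DMSO well. With homoharringtonine it had 734, 767 and 969 CPM at 100 nM, 649, 485 and 446 at 1000 nM, and 424, 405 and 405 at 10000 nM. All 9 were above every DMSO well, with log2 fold changes of 2.26 (SE 0.10, edgeR adjusted p = 1.78e-15), 1.60 and 1.22. With triptolide RRP12 had 180, 72.3 and 176 CPM at 100 nM, where the shallow well was the low one, 50.6, 42.0 and 49.3 at 1000 nM, and 43.2, 41.2 and 52.3 at 10000 nM, of which the upper doses passed (-1.88 and -1.97). BYSL, LTV1 and TSR1 fell with triptolide at 1000 and 10000 nM, BYSL by 3.33 and LTV1 by 3.36 on the log2 scale at 10000 nM and TSR1 by 0.37. All 4 rose with homoharringtonine at 100 nM, by 0.85 to 2.26, against 31.1% of all genes higher.

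The 60S factors held the lowest value of the 40 genes with triptolide at 1000 nM and at 10000 nM. RRS1, which brings the 5S RNP into the pre-60S particle, had 46.8, 53.3 and 65.5 CPM as the lowest, median and highest DMSO well. With triptolide it had 20.8, 48.2 and 20.2 CPM at 100 nM, 3.604, 2.44 and 1.77 at 1000 nM, and 1.38, 1.63 and 2.06 at 10000 nM. The single well at 100 nM among the DMSO wells was the shallow one, and the log2 fold change of -5.06 at 10000 nM (SE 0.16, edgeR adjusted p = 1.16e-18) was the lowest of the 40 genes. With homoharringtonine RRS1 had 82.5, 88.2 and 107 CPM at 100 nM, 32.1, 23.2 and 22.5 at 1000 nM, and 17.97, 17.5 and 17.8 at 10000 nM. It thus went from above every DMSO well (0.77) to under every one (-1.08 and -1.65).

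NOP16 (ENSG00000048162, chromosome 5, 176383946 to 176388927, minus strand) followed the same course. It had 38.5, 51.1 and 64.2 CPM in DMSO, 32.3, 0 and 39.3 CPM with triptolide at 100 nM (the 0 in the shallow library), 1.42, 3.02 and 1.55 at 1000 nM, and 1.86, 1.42 and 2.22 at 10000 nM. The log2 fold change was -4.77 at 1000 nM (SE 0.25, edgeR adjusted p = 1.91e-14) and -4.86 at 10000 nM. With homoharringtonine NOP16 had 111, 108 and 134 CPM at 100 nM, above every DMSO well (1.20), 44.1, 26.9 and 26.7 at 1000 nM, and 25.3, 24.1 and 23.5 at 10000 nM, under every DMSO well (-1.11).

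BOP1, a scaffold of the PeBoW complex, did the reverse of RRS1 under triptolide on the TMM scale. It had 251, 313 and 380 CPM in DMSO, 386, 325 and 471 CPM with triptolide at 100 nM, 610, 601 and 524 at 1000 nM, and 483, 491 and 559 at 10000 nM. The 6 wells of the upper doses lay above every DMSO well (0.89 and 0.67, SE 0.10 and edgeR adjusted p = 2.90e-06 at 10000 nM), though at -1.57 and -2.14 on the mitochondrial scale. With homoharringtonine BOP1 had 299, 328 and 453 CPM at 100 nM, 275, 203 and 196 at 1000 nM, and 167, 159 and 173 at 10000 nM, lower at the upper doses (-0.47 and -0.94). Its partner PES1 rose with homoharringtonine at 100 nM (1.22) and 1000 nM (0.46) and fell mildly with triptolide at the upper doses (-0.28 and -0.37). The third PeBoW protein, WDR12, passed only with triptolide at 100 nM (-0.89).

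Of the other 60S factors, NOP2, an RNA methyltransferase, GNL3, a nucleolar GTPase, and PPAN fell by 3.02, 2.90 and 3.28 on the log2 scale with triptolide at 10000 nM. PPAN is overlapped by a read-through transcript, so its counts are less certain. With homoharringtonine GNL3 was at 1.28 at 100 nM and -0.55 at 10000 nM, PPAN at 0.86 and -1.10, and MRTO4 at 0.95 and -0.65, each past the test. DDX18, a helicase, rose at all 3 homoharringtonine doses (0.96, 0.44 and 0.48).

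Summed over the 40 genes, the share of all transcripts was 0.769% ± 0.0710 in DMSO (SD, n = 18, from TPM). It was 1.09% ± 0.0128 with homoharringtonine at 100 nM (n = 3, wells of 1.10%, 1.08% and 1.08%), above every DMSO well, the highest of which had 0.886%. At 1000 and 10000 nM the share was 0.752% ± 0.0511 and 0.748% ± 0.0160, within the DMSO range. With triptolide it was 0.550% ± 0.0712, 0.491% ± 0.0301 and 0.512% ± 0.0179, under every DMSO well. NPM1 alone makes up a large part of this sum. Without it the shares were 0.420% ± 0.0279 in DMSO, 0.623% ± 0.0170 with homoharringtonine at 100 nM, and 0.333% ± 0.0590, 0.253% ± 0.0144 and 0.239% ± 0.0136 with triptolide. The triptolide wells at 100 nM, from 0.297% to 0.401%, then overlapped the DMSO wells, from 0.372% to 0.462%.

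**Figure D4:**
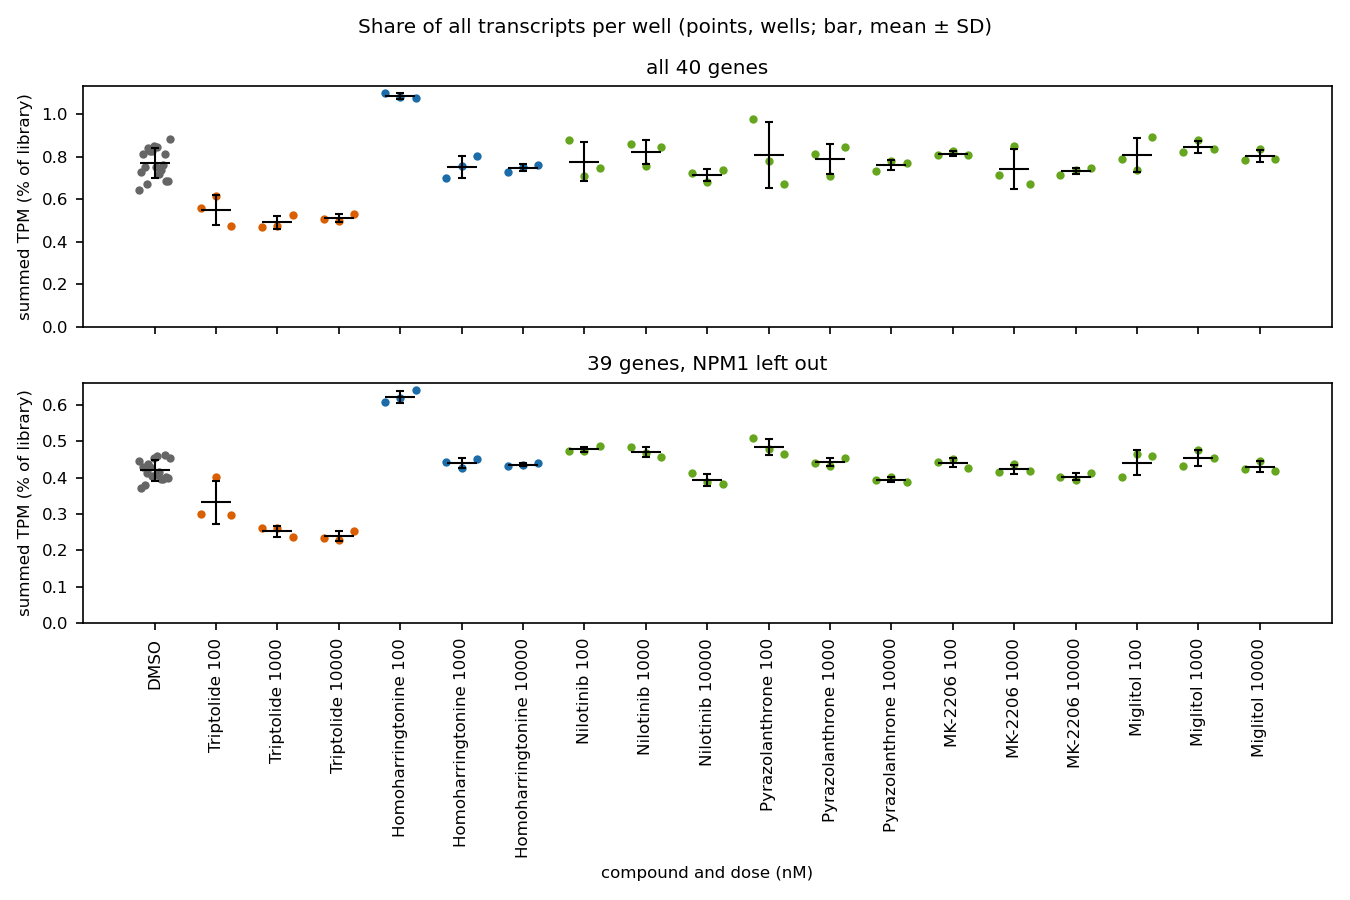
Summed TPM of the 40 genes, and of 39 without NPM1, in percent of each library, for DMSO and 6 compounds at 3 doses in nM; points are wells and bars the mean ± SD. Homoharringtonine at 100 nM (1.09%) lies above and triptolide (0.491% to 0.550%) below the DMSO range of 0.644% to 0.886%.

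The triptolide and homoharringtonine wells were also compared directly, at matched doses and the same time and without the DMSO wells. Triptolide was lower by more than 1 on the log2 scale for 32 of 40 members at 100 nM, 26 at 1000 nM and 24 at 10000 nM, against 27.4%, 35.9% and 37.9% of all genes. By adjusted p alone 33, 29 and 30 members were lower, against 35.8%, 38.9% and 47%, and 2, 6 and 8 higher, against 29.7%, 27.9% and 41.4%. All 11 processome genes were lower at each dose, 10 of them by more than 1 at 10000 nM, where RRP9 was at -0.90. The largest gap was that of WDR75 at 10000 nM, -5.08 (SE 0.16, edgeR adjusted p = 2.38e-10), a level in triptolide wells of 2.96% of that in homoharringtonine wells. DDX10 (-4.62), WDR43 (-4.50) and UTP15 (-4.14) followed. At 10000 nM the GC slopes ran from 0.23 to 0.37 with triptolide and from -0.41 to -0.27 with homoharringtonine. At 100 nM they ran from 0.31 to 0.46 and from -0.24 to 0.17. The slope was not a covariate in this contrast, so its part in these gaps was not tested.

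A minority was higher with triptolide by more than 1, 0 members at 100 nM, 3 at 1000 nM and 6 at 10000 nM, against 20.5%, 22.6% and 30.2% of all genes. At 10000 nM these were TCOF1 (2.02), NHP2 (1.76), BOP1 (1.69), DKC1 (1.44), NOP10 (1.38) and FBL (1.27), of which 3 belong to the box H/ACA particle. On the mitochondrial scale all 6 were negative, from -1.31 for FBL to -0.55 for TCOF1. The median there was -2.75 over all genes and -4.04 over the members, so these 6 stayed above both. NCL (0.45) and NPM1 (0.29) also passed as higher at 10000 nM, with -0.13 and -0.29 on library totals. MRTO4 (0.12) and WDR12 (0.24) did not pass at 10000 nM.

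**Figure D5:**
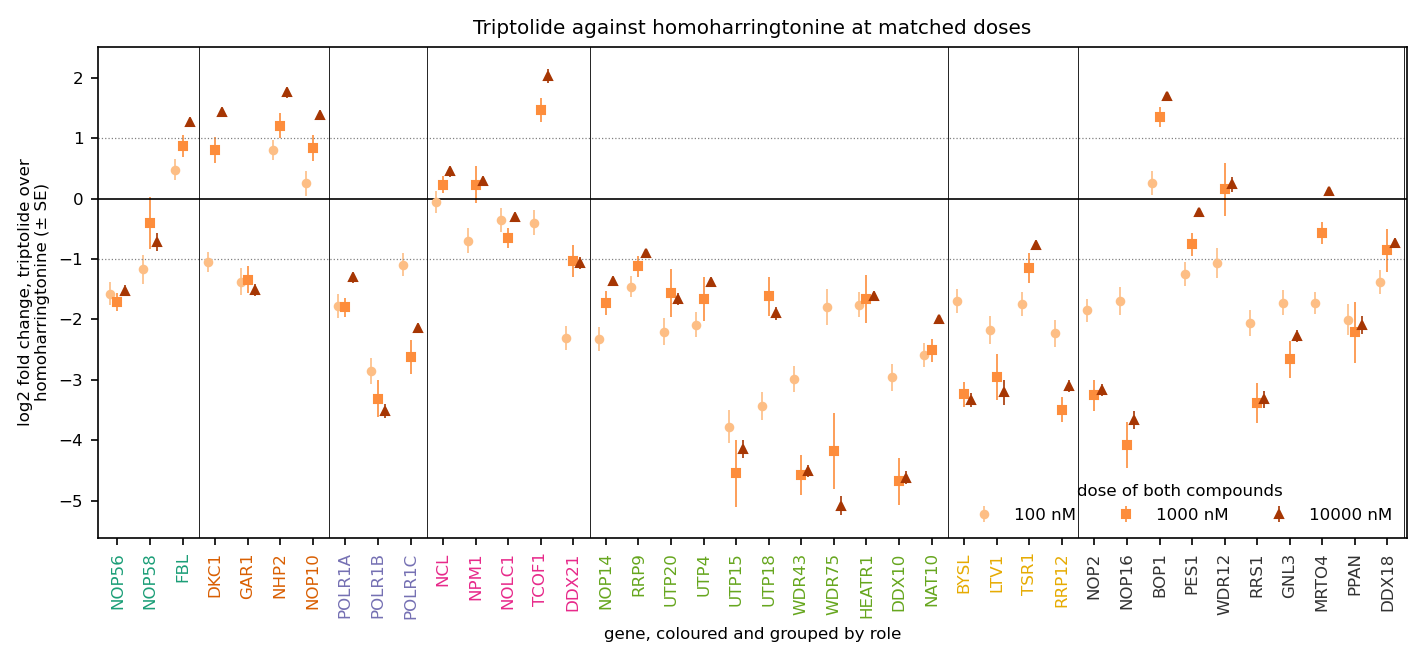
Log2 fold change of triptolide over homoharringtonine (± SE, edgeR) at 100, 1000 and 10000 nM for the 40 genes, coloured by role; dotted lines mark 1 and -1. Processome genes lie under 0 at every dose, down to -5.08 for WDR75, and TCOF1, NHP2, BOP1, DKC1, NOP10 and FBL lie above 1 at 10000 nM, a sign that reverses on the mitochondrial scale.

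Over the 9 wells of each compound, a linear trend on log10 dose was fitted. With homoharringtonine 27 members fell with dose and none rose, against 22.9% lower and 21.1% higher among all genes. DESeq2 gave the same 27 and 0. RRS1 fell by 1.23 on the log2 scale per log10 unit of dose (SE 0.13, edgeR adjusted p = 6.95e-05), NOP16 by 1.17, DKC1 by 1.15 and PPAN by 0.995. With triptolide 15 fell and 1 (TCOF1, 0.55) rose, against 17.8% and 6.93% of all genes. NOP16 fell by 2.14 and RRS1 by 1.91 per log10 unit of dose, most of it between 100 and 1000 nM. Leaving out well 1, 2 or 3 of each triptolide dose gave 11, 12 and 9 falling members, and TCOF1 stayed past the test without well 2 alone.

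The trends themselves differed between the compounds for 22 members. The triptolide trend was the higher for 16, led by DKC1 (1.25, SE 0.17, edgeR adjusted p = 1.74e-05) and TCOF1 (1.19), against 19% of all genes. It was the lower for 6, led by WDR75 (-1.60, SE 0.32, edgeR adjusted p = 0.000588), against 21.4%. These counts were 7 and 10 with library totals, 2 and 12 on the mitochondrial scale, and 8 to 11 and 2 to 3 without 1 well number.

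With the 4 other compounds no member passed a log2 fold change of 1 in edgeR with TMM or in DESeq2. On the mitochondrial scale 11 did with nilotinib over its 3 doses. The median there over all genes was 0.403, 0.105 and -0.683 at the 3 doses, and over the members 0.631, 0.367 and -0.629. Among all genes on the TMM scale the shares past a log2 fold change of 1 were small as well. Higher and lower they were 0.702% and 0.778%, 0.745% and 0.383%, and 2.41% and 0.709% at the 3 nilotinib doses. They were 0.0054% and 0%, 0.194% and 0.0918%, and 0.56% and 0.151% with MK-2206. They were 0.342% and 0.581%, 0% and 0%, and 0.589% and 0.568% with Pyrazolanthrone, and 0% throughout with Miglitol. With nilotinib at 100 nM 10 members were higher at adjusted p alone and none lower, against 5.5% and 3.58% of all genes, the 4 largest being RRS1 (0.88, SE 0.11, edgeR adjusted p = 1.93e-05), NOP16 (0.73), BOP1 (0.71) and PPAN (0.68). RRS1 had 76.6, 118 and 108 CPM there, above every DMSO well. At 1000 nM RRS1 (0.59) and GAR1 (0.53) were higher and none lower, against 2.51% and 1.44% of all genes, and at 10000 nM POLR1B was higher (0.56) and TCOF1 (-0.68) and NCL (-0.28) lower, against 7.97% and 6.39%. On the mitochondrial scale none was higher and none lower at 1000 nM, and none was higher and 29 were lower at 10000 nM. Without well 1, 2 or 3 no member passed at 10000 nM, while at 1000 nM RRS1 passed in all 3 of these fits and GAR1 in none. With Pyrazolanthrone at 100 nM 9 members were higher and none lower, against 3.2% and 1.56% of all genes, led by NOP16 (0.75), RRS1 (0.70), GAR1 (0.64) and RRP12 (0.50). RRS1 had 70.5, 89.5 and 100.2 CPM there.

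The GC slopes of these 2 groups ran from -0.02 to 0.63 in the nilotinib wells at 100 nM and from 0.14 to 0.47 in the Pyrazolanthrone wells, against -0.26 to 0.42 in DMSO. With the slope as a covariate 21 and 17 members were higher. Leaving out 1 treated well gave 5 to 14 members for nilotinib, with 5 in the absence of well 2 or of well 3, and 1 to 8 for Pyrazolanthrone, with 1 in the absence of well 2 and 2 in that of well 3. On the mitochondrial scale the counts were 15 and 0, with medians of 0.40 and 0.23 over all genes and 0.63 and 0.36 over the members. With MK-2206 RRS1 was the single member to pass, at 1000 nM (0.44, SE 0.10, edgeR adjusted p = 0.0206, with 71.1, 70.8 and 78.3 CPM), against 1.2% of all genes higher and 0.318% lower. RRS1 did not pass there on the mitochondrial scale, without well 1 or without well 3. The count was 0 at the other MK-2206 doses, where 5 and 1 members had an unadjusted p under 0.05 and DESeq2 gave 0, against 0.0594% and 0.0054% of all genes at 100 nM and 2.21% and 0.948% at 10000 nM. It was also 0 for Miglitol at each dose, where 0% of all genes were higher and 0% lower. At an unadjusted p under 0.05 there were 9, 14 and 13 members, and by DESeq2 0, 1 and 0. For Pyrazolanthrone the count was 0 at 1000 and 10000 nM, with 9 and 5 at an unadjusted p under 0.05 and 0 and 1 by DESeq2. At 10000 nM 3.35% of all genes were higher and 4.3% lower, and at 1000 nM none.

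Of 110 other ribosome biogenesis genes, 83 were lower and 15 higher with triptolide at 10000 nM, against 39.7% and 32.2% of all genes. Their median log2 fold change was -1.27. On the mitochondrial scale all 110 were lower, with a median of -4.03 against -2.92 over all genes. IMP3 (-5.82) and NGDN (-5.34), both processome proteins, were lowest, and EXOSC5 (1.07), an exosome subunit, and SENP3 (1.05), a SUMO protease, highest. With homoharringtonine 89 were higher and 8 lower at 100 nM (median 0.93), against 31.1% and 32.3% of all genes, and 68 higher and 21 lower at 10000 nM (median 0.54), against 36.7% and 37.2%. POLR1G (-2.29) and UBTF (-1.89), factors of RNA polymerase I transcription, were lowest at 10000 nM, and RIOK3 (2.79), a kinase, and TAF1A (2.62), of the RNA polymerase I factor SL1, highest.

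The 79 cytosolic ribosomal protein genes, whose products these factors assemble, went another way with triptolide on the TMM scale. With triptolide at 10000 nM 78 were higher and none lower on the TMM scale in edgeR (median 1.04, against 32.2% of all genes higher). DESeq2 gave 79 and 0, and an unadjusted p under 0.05 was found in 79 and 0. On the mitochondrial scale all 79 were lower, with a median of -1.76 against -2.92 over all genes. With homoharringtonine at 100 nM 31 were higher and none lower in edgeR (median 0.31, against 31.1% and 32.3% of all genes; DESeq2 23 and 0, unadjusted 38 and 0), 7 higher and 4 lower with library totals, and none in either direction on the mitochondrial scale, where 2 were higher at an unadjusted p under 0.05. At 10000 nM 2 were higher and 50 lower (median -0.43), against 36.7% and 37.2% of all genes.

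Promoters were looked at because most of these genes moved together. RefSeq promoter sequences of build GRCh38.p14, from 250 bases before to 50 after the annotated start, were at hand for 33 of the 40 members, and not for BOP1, RRS1, NOLC1, TCOF1, NOP58, RRP12 and DDX18. The E-box CACGTG, which reads the same on both strands, was present in 14 of 33 (42.4%), in 28.9% of 97 promoters of other ribosome biogenesis genes, in 4.76% of 63 ribosomal protein promoters, in 7.43% of all 27305 promoters and in 8.88% of 15843 protein-coding ones. CCGGAAG, the core of ETS factor sites, read on both strands, was in 36.4% of member promoters and 10.7% of all. It was in 44.3% of promoters of other ribosome biogenesis genes, 33.3% of ribosomal protein promoters and 14.2% of protein-coding ones. CCAAT, on both strands, was in 42.4% of member promoters and 35.7% of all. No overlap between motifs was scored. The 250 bases before the start are shown for 4 members that hold an E-box there (capitals), 3 processome genes that rose with homoharringtonine at each dose and NOP10, which did not. Of processome genes not shown, UTP18 holds one 89 bases before the start and passed at no homoharringtonine dose. RRP9 holds one 5 bases before it and rose at each dose. UTP4 (chr16:69132399-69132648, plus strand), UTP20 (chr12:101279855-101280104, plus strand) and NAT10 (chr11:34105379-34105628, plus strand) carry it 16, 10 and 15 bases before the start, and NOP10 (chr15:34343137-34343386, minus strand) 170 and 11 bases before it.
UTP4: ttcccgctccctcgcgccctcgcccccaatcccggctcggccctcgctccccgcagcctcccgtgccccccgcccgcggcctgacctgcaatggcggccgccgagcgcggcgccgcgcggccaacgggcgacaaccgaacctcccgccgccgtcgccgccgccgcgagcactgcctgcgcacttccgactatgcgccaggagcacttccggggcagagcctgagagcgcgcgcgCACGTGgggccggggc
UTP20: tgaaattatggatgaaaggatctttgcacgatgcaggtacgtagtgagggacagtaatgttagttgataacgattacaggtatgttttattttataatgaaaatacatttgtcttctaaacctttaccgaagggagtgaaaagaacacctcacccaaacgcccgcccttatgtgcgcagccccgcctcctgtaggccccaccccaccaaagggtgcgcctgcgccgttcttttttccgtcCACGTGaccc
NAT10: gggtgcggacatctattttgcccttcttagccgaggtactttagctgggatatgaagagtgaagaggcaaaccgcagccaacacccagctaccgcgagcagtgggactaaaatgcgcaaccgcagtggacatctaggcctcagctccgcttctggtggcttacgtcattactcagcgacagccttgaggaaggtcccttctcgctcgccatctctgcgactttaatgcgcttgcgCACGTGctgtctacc
NOP10: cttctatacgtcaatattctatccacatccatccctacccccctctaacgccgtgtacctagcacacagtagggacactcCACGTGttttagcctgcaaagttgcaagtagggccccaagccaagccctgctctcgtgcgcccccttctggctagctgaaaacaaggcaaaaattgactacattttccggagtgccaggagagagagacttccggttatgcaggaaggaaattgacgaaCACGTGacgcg

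Members with and without an E-box were counted side by side. With homoharringtonine at 100 nM 11 of the 14 with an E-box and 16 of the 19 without were higher, with medians of 1.19 and 0.86 on the log2 scale. With triptolide at 10000 nM 10 of 14 and 14 of 19 were lower, with medians of -1.01 and -1.28. A match of letters is not a bound site.

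The mean length of a gene's transcripts, weighted by the estimated share of each, is a readout that the choice of members did not use. It varied and could be tested in 37 members, with limma on the log2 length and a change over 0.1 as the call. NOP56 became longer with homoharringtonine at each dose, by 0.28, 0.24 and 0.22 (SE 0.06, limma adjusted p = 0.0276 at 10000 nM), and shorter with triptolide at each dose, by -0.42, -0.22 and -0.23, around a mean length in DMSO of 1328 bases. It was the single longer member with homoharringtonine, against 0.724%, 1.23% and 2.11% of all genes at the 3 doses, and no member was shorter at 100 or 1000 nM, against 1.7% and 2.91%. With homoharringtonine at 10000 nM GNL3 (-0.17), PES1 (-0.12) and NOP16 (-0.10) were shorter, 3 of 37 against 4.66% of all genes. With triptolide at 10000 nM NOP16 (-0.26, SE 0.04, limma adjusted p = 0.000261), NOP56 and TCOF1 (-0.14) were shorter, against 6.17%, and none longer, against 1.15%. At 1000 nM of triptolide 4 members were shorter and none longer, against 8.54% and 1.68% of all genes. At 100 nM of triptolide 10 members were shorter and none longer, against 15.2% and 2.13% of all genes, and without the shallow well 2 none of the 37 was. The NOP56 gain passed at 100 and 1000 nM without well 1 but not without well 2 or 3, and at 10000 nM in none of these fits.

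Among the 40 genes, the fold change with triptolide at 10000 nM was higher for genes of higher DMSO level (Spearman's rho 0.576 across 40 genes, in TPM, which are not independent replicates), while the coefficients were -0.02 for gene span, -0.12 for transcript length and 0.06 for GC content. With homoharringtonine at 10000 nM it related to GC content (-0.46) and gene span (0.44), and at 100 nM all 4 coefficients lay between -0.28 and 0.19. The DMSO wells enter both measures of the first relation.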

How the data were processed

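Poly(A)-selected libraries of 72 wells of U2OS cells were processed by the authors with RSEM, whose version and annotation are not given in the sources used here; the submitters' processing notes name RSEM, HTSeq, DESeq2 and GRCh38 without roles. The deposited files hold, per gene, expected counts (estimated counts, which need not be whole), TPM, FPKM and transcript length, for 60371 Ensembl genes. Gene positions came from GENCODE on GRCh38, and GC content from the same reference for 98.7% of genes with a mean of at least 1 CPM.

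Expected counts were rounded and tested with edgeR 4.0.16 (quasi-likelihood test, TMM, filterByExpr with a minimum count of 10, Benjamini-Hochberg adjustment over all genes tested) in R 4.3.3. Each compound dose was compared with the 18 DMSO wells, and triptolide with homoharringtonine at each dose. A gene passed at an adjusted p under 0.05, and the stricter count also needed a log2 fold change beyond 1 in size. Transcript length was tested on the log2 scale with limma 3.58.1. TPM served for levels between genes and for shares, and FPKM as an alternative for the levels. Scripts were tested on simulated data. Library depth ran from 70767 to 68296309 expected counts, and genes at a few counts in the shallowest well are not resolved.

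Alternatives were DESeq2 1.42.0, library totals, scaling to 13 mitochondrial mRNAs, at least 10 counts in every well and no filter. Others were leaving out the 3 shallow libraries (under 10000000 counts), a replicate block, and leaving out each well number. The GC slope served as covariate in the comparisons with DMSO only. Well numbers did not pair the samples: in 0 of 27 group pairs did every same-numbered pair correlate over 0.1. All 40 members could be named, and well values were given for FBL, NCL, NPM1, POLR1A and BOP1 and for the 2 highest and 2 lowest members at each dose of triptolide and homoharringtonine. For the other compounds at most 4 called members per dose were named by size; of the other biogenesis genes, the 2 highest and 2 lowest at 10000 nM. The members and lists were chosen with earlier results of these data known. Motifs were searched in RefSeq promoters of GRCh38.p14. Figures were drawn with matplotlib 3.10.9.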

Additional observations from a re-analysis of the deposited data

Results flagged for a closer look

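The change of expression per log10 unit of dose differed between triptolide and homoharringtonine by edgeR's test of the difference (adjusted p under 0.05) for 22 members. For 16 members the triptolide trend was the higher, and for 6 it was the lower. The 16 became 7 with library totals and 2 on the mitochondrial scale, and the 6 became 10 and 12.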

How the results depend on the processing

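The scaling to mitochondrial messages, whose share was higher with triptolide than in DMSO, moved these results most. Whether TMM or the mitochondrial scale is nearer to RNA per cell was not tested. For triptolide over homoharringtonine the median of all genes on the mitochondrial scale was -1.75, -2.69 and -2.75 at the 3 doses. On the mitochondrial scale, the log2 estimate became negative for FBL (-1.02), NHP2 (-0.72), NCL (-1.27), NOLC1 (-1.28) and BOP1 (-1.20) in triptolide at 100 nM. In triptolide at 1000 nM it did so for FBL (-1.86), NHP2 (-1.55) and BOP1 (-1.57). In triptolide at 10000 nM it did so for FBL (-2.25), NHP2 (-1.84), NOP10 (-2.14), TCOF1 (-2.32) and BOP1 (-2.14). In homoharringtonine at 10000 nM it did so for NAT10 (-0.012). In triptolide over homoharringtonine at 100 nM it did so for FBL (-1.10) and NHP2 (-0.78). In triptolide over homoharringtonine at 1000 nM it did so for FBL (-1.53), DKC1 (-1.56), NHP2 (-1.23), NOP10 (-1.56), TCOF1 (-0.93) and BOP1 (-1.06). In triptolide over homoharringtonine at 10000 nM it did so for FBL (-1.31), DKC1 (-1.15), NHP2 (-0.83), NOP10 (-1.20), NCL (-2.12), NPM1 (-2.30), TCOF1 (-0.55) and BOP1 (-0.89). In the difference of dose trends it did so for FBL (-0.11), NHP2 (-0.041), NCL (-0.28), NPM1 (-0.039) and RRP9 (-0.22). With at least 10 counts in every well, the log2 estimate became negative for FBL (-0.067), NCL (-0.41), NOLC1 (-0.32) and BOP1 (-0.25) in triptolide at 100 nM. In triptolide over homoharringtonine at 100 nM it did so for FBL (-0.30). In the difference of dose trends it did so for NCL (-0.11). With library totals, the log2 estimate became negative for NCL (-0.0034) in triptolide at 100 nM. In triptolide at 10000 nM it did so for TCOF1 (-0.080). In triptolide over homoharringtonine at 10000 nM it did so for NCL (-0.13) and NPM1 (-0.29). With the GC slope as covariate, the log2 estimate became negative for NOP58 (-0.079), UTP20 (-0.13), HEATR1 (-0.20) and DDX18 (-0.24) in homoharringtonine at 10000 nM. In counts past a log2 fold change of 1, members lower with triptolide became 39, 40 and 40 at the 3 doses on the mitochondrial scale, and 1 at 100 nM with at least 10 counts in every well, where 9 members could be tested. DESeq2 put 2 members higher with triptolide at 1000 nM and 1 at 10000 nM. Members higher with homoharringtonine became 13 at 100 nM with library totals, and 4 on the mitochondrial scale and 3 with the GC slope at 10000 nM; with the GC slope 1 was lower at 1000 nM. For triptolide against homoharringtonine, 5 were lower at 100 nM with 10 counts in every well, 0 were higher at 1000 nM on the mitochondrial scale, and at 10000 nM 3 were higher with library totals and 0 higher and 37 lower on the mitochondrial scale. The rising triptolide trend became 2 (DESeq2), 0 (mitochondrial scale), 0 (10 counts in every well) and 3 (no filter), and the falling one 36 (mitochondrial scale) and 3 (10 counts in every well). The trend difference became 7 higher and 10 lower with library totals, 2 and 12 on the mitochondrial scale, and 1 and 1 with 10 counts in every well. Nilotinib, summed over doses, had 11 members on the mitochondrial scale, where the median of all genes was 0.40 at 100 nM and -0.68 at 10000 nM. For transcript length, members shorter with triptolide at 100 nM became 3 with 10 counts in every well and 1 without the 3 shallow libraries, where homoharringtonine at 100 nM had 2 longer and 1 shorter. With FPKM in place of TPM, the count of neighbours in the DMSO order apart by more than the larger SD stayed close to the 5 found with TPM. The cause of these changes was not tested.

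The well numbers did not pair the samples, so the replicate block shares only a number. With it the lower trend differences became 3, members past 1 became 1 for nilotinib, 1 for Pyrazolanthrone and 2 for Miglitol, the 10 nilotinib and 9 Pyrazolanthrone members past adjusted p at 100 nM became 0, as did the 2 nilotinib members and the 1 MK-2206 member at 1000 nM, the counts at 10000 nM became 15 higher and 12 lower for Pyrazolanthrone, 18 and 10 for Miglitol and 10 and 8 for nilotinib, and length calls became 0 for shorter transcripts at each triptolide dose and at homoharringtonine 10000 nM, and 0 for longer ones at each homoharringtonine dose. Without 1 well number, rising triptolide trends ran from 0 to 1, falling ones from 9 to 12, trend differences from 8 to 11 higher and 2 to 3 lower, homoharringtonine falling trends from 20 to 27, members higher with triptolide at 10000 nM from 0 to 1, members higher than homoharringtonine at 1000 nM from 3 to 5, members lower with homoharringtonine at 1000 nM from 2 to 3, and nilotinib members from 0 to 2. Shorter transcripts with triptolide ran from 0 to 16, 3 to 9 and 1 to 2 at the 3 doses and longer ones from 0 to 1, 0 to 2 and 0 to 1; with homoharringtonine longer ones ran from 0 to 1 at 100 and 1000 nM and were 0 at 10000 nM, where shorter ones ran from 1 to 3.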
